A study of Homo sapiens with 8 samples.

Results

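The 57 genes described here encode proteins of the mitotic spindle, the kinetochore and cytokinesis, together with the kinases, cyclins and chromosome proteins of mitosis. They were taken by gene symbol from the 58302 genes of the expression tables, and all 57 were found. RNA sequencing had been carried out on SK-Hep1 cells, an established human line from a liver tumour, as 8 libraries, each from a condition of its own, without replicates. Cells with ectopic SLC29A2, which encodes an equilibrative nucleoside transporter, and mock control cells each received sorafenib and dipyridamole together, dipyridamole alone, sorafenib alone or a control treatment. Sorafenib inhibits several kinases, among them RAF, and dipyridamole inhibits nucleoside transport and cyclic nucleotide phosphodiesterases. Doses, treatment times, the vector and the number of clones were not given in the sources used here, and the control treatment is named as such in the labels without stating its content.

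During mitosis the duplicated chromosomes condense, attach through their kinetochores to spindle microtubules and are pulled apart, after which the cell divides by cytokinesis. Cyclin B with CDK1 drives entry, the spindle checkpoint holds anaphase until the chromosomes are attached, and the anaphase-promoting complex then marks securin and cyclin B for destruction. Most genes of this group are known to be transcribed mainly in the late cell cycle, under MYBL2, the MuvB proteins and FOXM1, and to be repressed outside it by the DREAM complex. CHR elements and CCAAT boxes, to which MuvB complexes and NF-Y bind, are known promoter elements of such genes. All 8 libraries came from bulk RNA, so fewer cells in mitosis and less of these RNAs per cell cannot be told apart.

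Of the 57 genes, 48 had a promoter in the RefSeq table on GRCh38.p14, from 250 bases before to 50 after the gene's start. BUB3, TTK, FOXM1, UBE2C, AURKA, TPX2, BIRC5, KNL1 and RACGAP1 were not in it. The letters TTTGAA, the CHR element, and its variant TTCGAA were searched on both strands, as was CCAAT. At least 1 of the CHR spellings stood in the promoter of 39 of the 48 genes (81.3%), against 1493 of the 9992 tested genes with a promoter in the table (14.9%) and 16.4% of all 35116 promoters. CCAAT stood in 38 of 48 (79.2%), against 43.0% of the tested genes and 34.6% of all promoters. Both stood together in 31 of 48 (64.6%), against 6.33% of the tested genes and 6.38% of all promoters. A gene with several promoters was counted once if any of them held the letters, which applied to 9 of the 48 genes. The shares of all promoters count each promoter by itself. Counted by gene, they were 19.5% for CHR, 39.7% for CCAAT and 7.85% for both, of all 27305 genes with a promoter.

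The 150 bases before the start of 4 of these genes are shown because their levels are described below and they hold the elements in different arrangements. Capitals mark CCAAT, read as ATTGG on the other strand, and the CHR element. PLK1 lies at chr16:23678739-23678888 on the plus strand, CDC20 at chr1:43358831-43358980 on the plus strand, MKI67 at chr10:128126424-128126573 on the minus strand, and KIF20A at chr5:138178962-138179111 on the plus strand. Each is printed along its gene.
PLK1: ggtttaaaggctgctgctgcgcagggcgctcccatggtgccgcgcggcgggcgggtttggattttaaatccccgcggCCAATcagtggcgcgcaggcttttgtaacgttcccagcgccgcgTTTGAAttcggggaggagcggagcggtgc
CDC20: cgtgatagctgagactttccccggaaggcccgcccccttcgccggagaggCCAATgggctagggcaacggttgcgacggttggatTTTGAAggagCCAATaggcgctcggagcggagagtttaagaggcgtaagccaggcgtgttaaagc
MKI67: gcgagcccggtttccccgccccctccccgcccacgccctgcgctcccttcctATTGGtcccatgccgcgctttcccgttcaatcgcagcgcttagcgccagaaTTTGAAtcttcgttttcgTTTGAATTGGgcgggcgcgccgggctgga
KIF20A: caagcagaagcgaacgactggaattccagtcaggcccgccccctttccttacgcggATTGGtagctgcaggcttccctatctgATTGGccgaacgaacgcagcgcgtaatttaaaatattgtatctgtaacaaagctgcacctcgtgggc
In PLK1 the CCAAT box begins 73 bases and the CHR element 29 bases before the start. CDC20 holds a CHR element, at 65 bases, between CCAAT boxes at 100 and 55 bases. Another CHR match of CDC20 begins 178 bases before the start, outside the letters shown. MKI67 holds CHR elements at 47 and 29 bases, the nearer one overlapping a reverse CCAAT box. KIF20A, the gene with the largest fall under dipyridamole, holds reverse CCAAT boxes at 94 and 67 bases and no CHR letters in this window. These matches describe letters and do not show that a factor binds there. The 39 genes with CHR letters had a median dipyridamole difference of -1.56 and the 9 without of -1.57 on the log2 scale.

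The libraries held 14.07 to 16.69 M reads, as implied by the steps of the deposited FPKM values (fragment counts divided by gene length and sequencing depth). SLC29A2 was at 1477 FPKM or more in the SLC29A2 libraries and at 7.11 to 7.81 FPKM in the mock libraries, as the labels say. Of the 9 hepatocyte markers ALB, APOA1, APOB, TTR, TF, FGB and HNF4A lay at or below 0.131 FPKM in all libraries, AFP at 0.254 to 0.755 FPKM and SERPINA1 at 1.73 to 5.64 FPKM. The hepatocyte list summed to 2.01 to 4.96 FPKM in the libraries with dipyridamole and 2.44 to 5.91 FPKM in those without, and SERPINA1 was called higher with sorafenib (log2 difference 0.87, adjusted p = 0.0114 by limma). The endothelial markers PECAM1, CDH5, KDR and TEK lay at or below 0.259 FPKM. Of the rest of that list, CAV1 was at 100.8 to 389 FPKM, ENG at 40.0 to 76.0 FPKM and TIE1 at 0.895 to 5.02 FPKM. VWF, at 0.172 to 1.66 FPKM, averaged less than 1 FPKM and was not tested. The epithelial genes EPCAM and CDH1 lay at or below 0.338 FPKM, while KRT8 reached 1903 FPKM, KRT18 810 FPKM and KRT19 81.3 FPKM. The leukocyte list summed to 0.202 to 0.484 FPKM. The endothelial list of 8 genes summed to 152 to 203 FPKM in the libraries with dipyridamole and 396 to 464 FPKM in those without, and the epithelial list of 5 genes to 733 to 1075 FPKM with dipyridamole and 2019 to 2781 FPKM without. CAV1, KRT18 and KRT8 were the genes of these lists called lower with dipyridamole by limma (adjusted p = 4.05e-05, 4.71e-05 and 0.00082), and their part in the results below was not tested. These genes had the highest levels in their lists, so the sums mainly follow them. Of the 3 epithelial genes tested, KRT19 went the other way, with an estimate of 0.57, and did not pass. Of the 3 endothelial genes tested, 2 did not pass, and the highest estimate was 0.30. Mock libraries given dipyridamole held more non-coding reads, 2.68% with both drugs and 2.48% with dipyridamole alone, against 1.60% to 1.93% in the other 6 libraries. They also had more genes above 0 FPKM, 24801 with both drugs and 23766 with dipyridamole alone, against 22613 to 23514 in the other 6.

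All 57 genes had at least 1 FPKM in every library, so none entered the tests through 1 group of libraries only. The 57 genes together took 0.307% of reads in SLC29A2 cells and 0.237% in mock cells with both drugs, and 0.239% in both cell types with dipyridamole alone. Without dipyridamole they took 0.742% in SLC29A2 cells and 0.717% in mock cells with sorafenib, and 0.830% and 0.866% with the control treatment. Their share was therefore lowest in the 4 libraries with dipyridamole, whichever cell type or other drug was present. The median level of the 57 genes was 17.4 to 21.3 FPKM in the libraries with dipyridamole and 60.6 to 72.7 FPKM in those without. Counting error was small beside these gaps. Among the 55 genes whose reads could be recovered as whole numbers, the fewest were 72 reads, for SPC25 in mock cells with both drugs. Their exact Poisson interval of 56.3 to 90.7 reads at 95% corresponds to 4.68 to 7.53 FPKM and covers counting error only. Over all 57 genes the fewest were about 49 reads, in mock cells with dipyridamole alone, for a gene outside those 55.

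Dipyridamole was associated with lower RNA of all 57 genes. In an additive model of cell type, sorafenib and dipyridamole on log2(FPKM + 1), fitted with limma over the 13899 genes that averaged 1 FPKM or more, 57 of 57 were lower with an adjusted p under 0.05 and 0 were higher. Over all genes tested, 12.6% were lower and 17.5% higher. The median difference of the 57 was -1.54, or 2.91-fold lower, beside 0.07 for all genes, and the 57 ranged from -2.45 to -0.64. Each gene was lower in all 4 pairs of libraries that differ in dipyridamole alone, and for each the highest level with dipyridamole lay below the lowest level without it, as for 11.7% of all genes tested. With 1 library per condition the p-values measure the spread between these 8 libraries, and the 4 pairs differ in cell type and sorafenib. Leaving out both mock libraries given dipyridamole kept 53 of the 57 calls. The 4 lost were FOXM1 (-1.02, adjusted p = 0.0714), BIRC5 (-1.001, adjusted p = 0.0708), CENPA (-1.03, adjusted p = 0.0516) and CEP55 (-0.74, adjusted p = 0.114), all by limma.

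**Figure D1:**
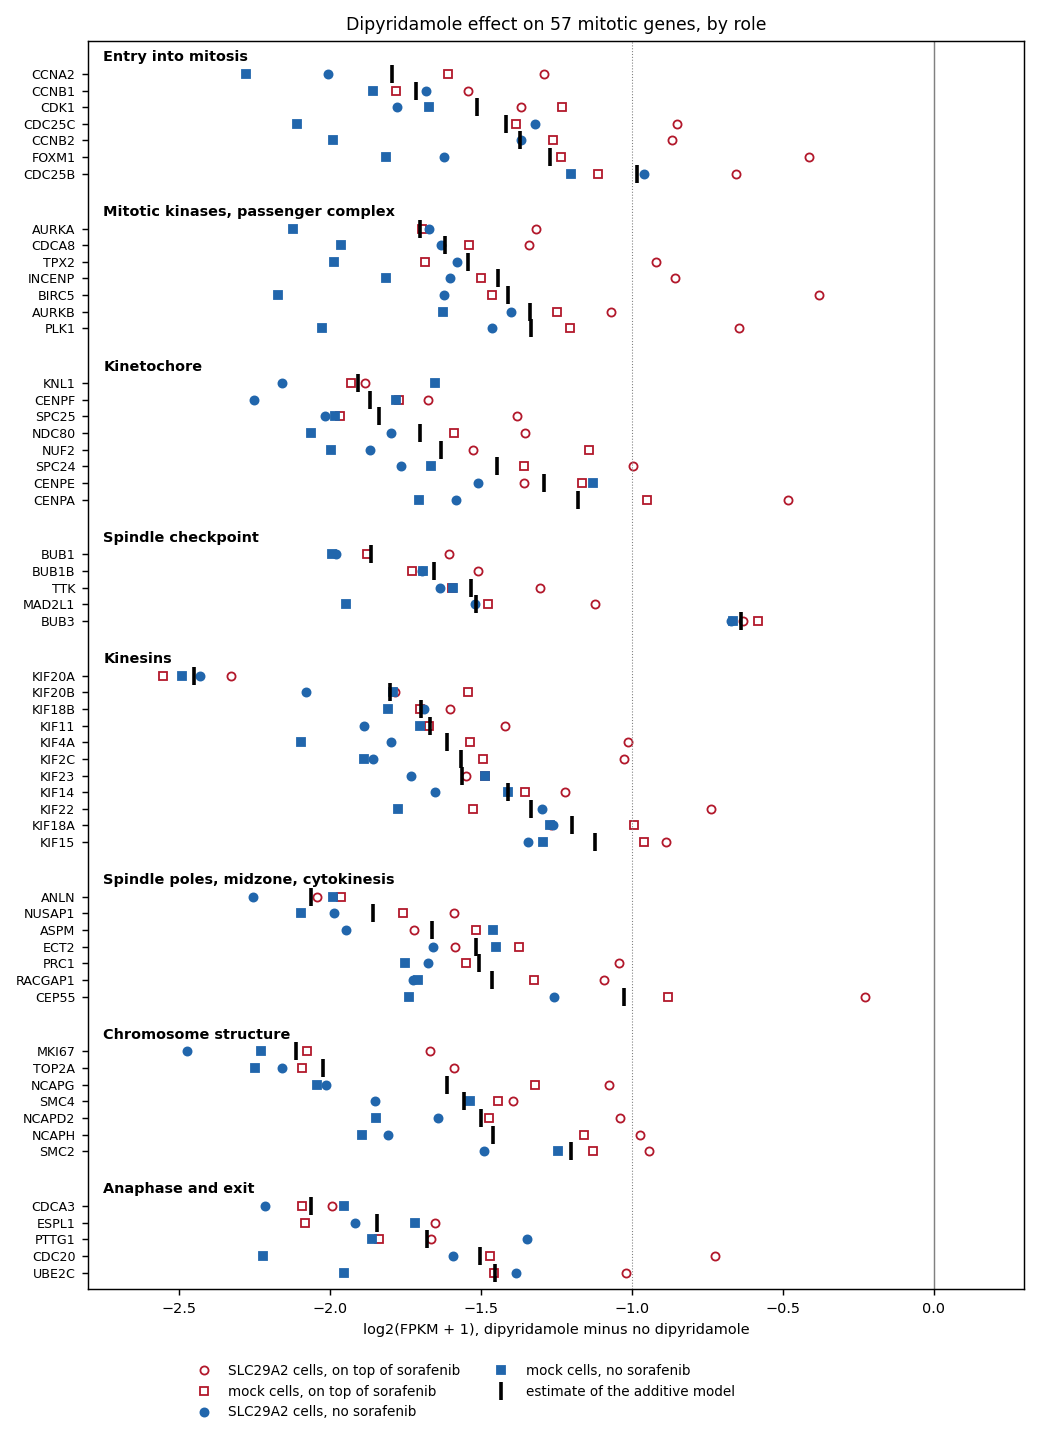
Difference in log2(FPKM + 1), dipyridamole minus no dipyridamole, for each of the 57 genes grouped by role. Open red symbols are pairs with sorafenib in both libraries, filled blue symbols pairs without it, circles SLC29A2 cells, squares mock cells, and black ticks the estimate of the additive model; the dotted line marks 2-fold, all symbols lie left of 0, and KIF20A (-2.45) and BUB3 (-0.64) have the lowest and highest estimates.

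The regulators of entry into mitosis fell as a group, 7 of 7, with a median of -1.42. CCNB1 encodes cyclin B1, the activating partner of CDK1. CCNB1 had 64.4 and 51.6 FPKM in SLC29A2 and mock cells with both drugs and 69.7 and 63.2 FPKM with dipyridamole alone, against 189.5 and 179.6 FPKM with sorafenib alone and 226 and 232 FPKM with the control treatment. Its estimate was -1.72 ± 0.1 (SE, adjusted p = 3.41e-05). CDK1 itself is the kinase that drives entry. In SLC29A2 cells CDK1 was at 18.3 FPKM with both drugs and 15.3 FPKM with dipyridamole alone, against 48.8 FPKM with sorafenib and 54.97 FPKM with the control treatment, and in mock cells at 20.6 FPKM with both drugs and 16.9 FPKM with dipyridamole alone, against 49.8 FPKM with sorafenib and 56.04 FPKM with the control treatment. The levels with dipyridamole lay within 15.3 to 20.6 FPKM and did not overlap the others, and the estimate was -1.51 ± 0.117 (SE, adjusted p = 7.49e-05). FOXM1 is a transcription factor of late cell cycle genes. Levels of FOXM1 with both drugs were 47.7 FPKM in SLC29A2 cells and 28.3 FPKM in mock cells and with dipyridamole alone 23.3 and 22.4 FPKM, against 63.9 and 67.95 FPKM with sorafenib alone and 73.6 and 81.3 FPKM with the control treatment. Its 4 dipyridamole libraries were less alike than those of CDK1, since SLC29A2 cells with both drugs stood above the other 3, and the estimate was -1.27 ± 0.208 (SE, adjusted p = 0.00247). FOXM1 shares 15.9% of its exon bases with ITFG2 on the opposite strand, which reached 31.8 FPKM, and counting by strand was not stated. CCNA2, the cyclin of S phase and early mitosis, had an estimate of -1.79. CCNB2, CDC25C and CDC25B, another B-type cyclin and the phosphatases that activate CDK1, fell with estimates of -1.37, -1.42 and -0.98. Exon overlap with a gene on the opposite strand was present for 20 of the genes described here, not for FOXM1 only. CDC25C shares 8.78% of its exon bases with FAM53C, which reached 73.7 FPKM, and CCNA2 9.08% with EXOSC9, which reached 28.2 FPKM. NCAPD2, described below, shares 7.49% with MRPL51, which reached 152.5 FPKM. How far reads of such overlapping genes enter these levels was not tested.

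The mitotic kinases and the chromosomal passenger complex fell in 7 of 7 genes, with a median of -1.44. PLK1, the polo-like kinase of spindle assembly and mitotic exit, was lowest in mock cells with dipyridamole alone. With both drugs PLK1 stood at 49.8 FPKM in SLC29A2 cells and 32.6 FPKM in mock cells, and with dipyridamole alone at 30.5 and 24.8 FPKM in these cells, against 78.5 and 76.3 FPKM with sorafenib alone and 85.9 and 104 FPKM with the control treatment. Its estimate was -1.33 ± 0.193 (SE, adjusted p = 0.0014). AURKA works at the spindle poles with its activator TPX2. AURKA had 33.7 and 24.1 FPKM in SLC29A2 and mock cells with both drugs and 35.4 and 27.6 FPKM with dipyridamole alone, against 85.4 and 80.4 FPKM with sorafenib alone and 115 and 123 FPKM with the control treatment. Its difference was largest in mock cells without sorafenib, -2.12, and its estimate was -1.70 ± 0.132 (SE, adjusted p = 7.46e-05). TPX2 fell by 1.54. AURKB is the kinase of the passenger complex, which corrects faulty attachments. In SLC29A2 cells AURKB was at 89.1 FPKM with both drugs and 71.7 FPKM with dipyridamole alone, against 188 FPKM with sorafenib and 191 FPKM with the control treatment, and in mock cells at 79.5 FPKM with both drugs and 68.5 FPKM with dipyridamole alone, against 190.3 FPKM with sorafenib and 214 FPKM with the control treatment. Its estimate was -1.34 ± 0.114 (SE, adjusted p = 0.00011). BIRC5 encodes survivin, which places AURKB at centromeres. Levels of BIRC5 with both drugs were 62.6 FPKM in SLC29A2 cells and 34.8 FPKM in mock cells and with dipyridamole alone 38.2 and 29.6 FPKM, against 81.8 and 97.6 FPKM with sorafenib alone and 119.6 and 137 FPKM with the control treatment. The library of SLC29A2 cells with both drugs again stood highest among those with dipyridamole, at 62.6 FPKM, and the estimate was -1.41 ± 0.235 (SE, adjusted p = 0.00268). The other passenger subunits INCENP and CDCA8 (borealin) fell with estimates of -1.44 and -1.62.

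**Figure D2:**
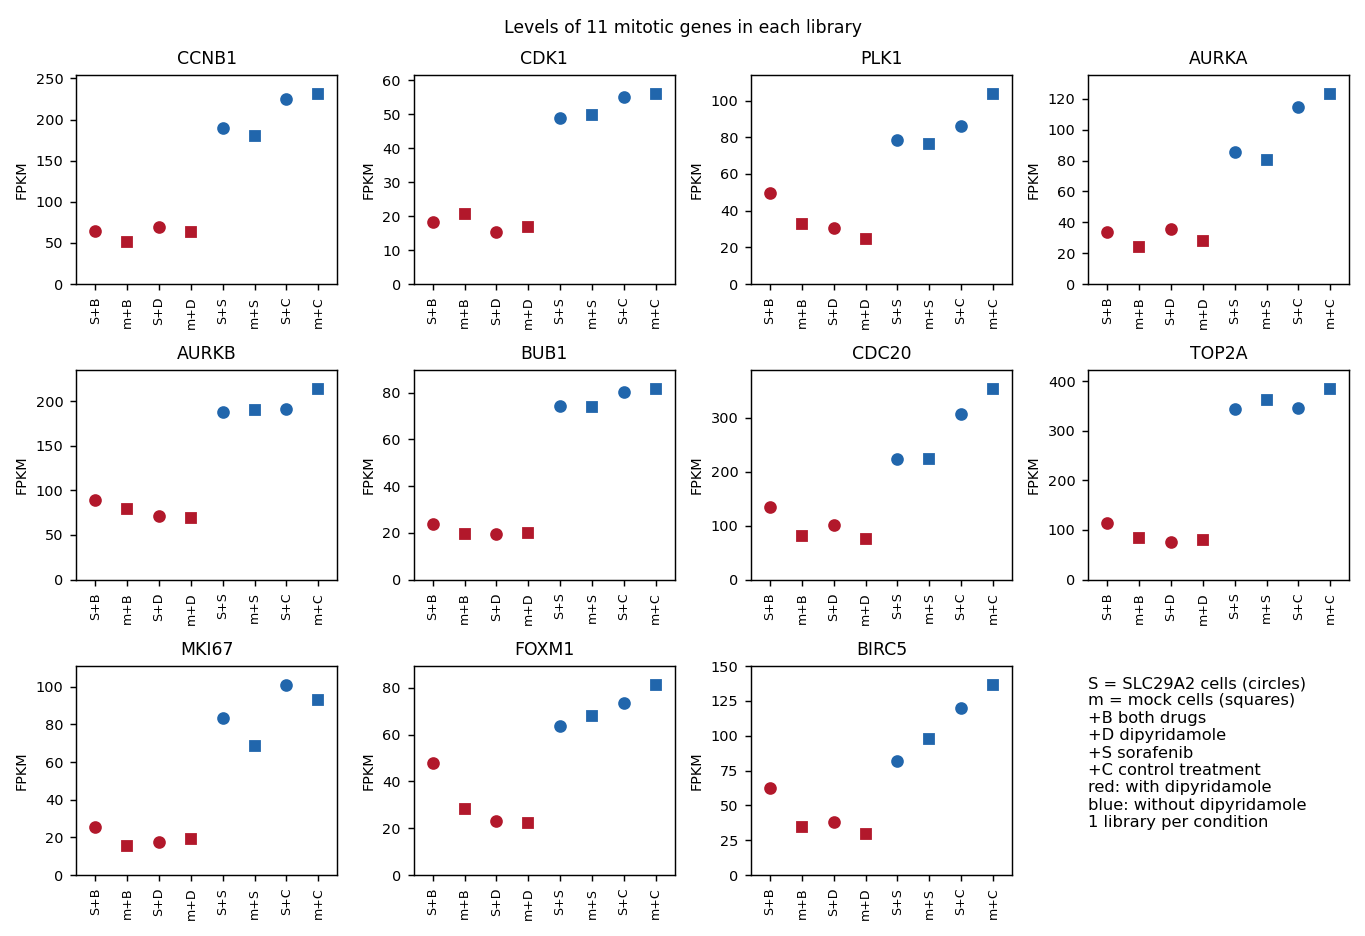
FPKM of CCNB1, CDK1, PLK1, AURKA, AURKB, BUB1, CDC20, TOP2A, MKI67, FOXM1 and BIRC5 in each of the 8 libraries, with axes from 0. Red points are libraries with dipyridamole and blue points those without, circles are SLC29A2 cells and squares mock cells; in each panel all red points lie below all blue points, and in BIRC5 and FOXM1 SLC29A2 cells with both drugs stood at 62.6 and 47.7 FPKM.

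All 8 kinetochore genes fell, with a median of -1.67. KNL1 is the scaffold that recruits checkpoint proteins to the outer kinetochore. With both drugs KNL1 stood at 6.84 FPKM in SLC29A2 cells and 5.58 FPKM in mock cells, and with dipyridamole alone at 5.51 and 7.30 FPKM in these cells, against 27.9 and 24.1 FPKM with sorafenib alone and 28.1 and 25.1 FPKM with the control treatment. It fell the most of this group, with an estimate of -1.91 ± 0.131 (SE, adjusted p = 5.05e-05). CENPF, a large protein of the outer kinetochore, followed with an estimate of -1.87. CENPF had 47.5 and 37.4 FPKM in SLC29A2 and mock cells with both drugs and 34.2 and 44.4 FPKM with dipyridamole alone, against 154 and 129.8 FPKM with sorafenib alone and 166 and 155 FPKM with the control treatment. The 4 subunits of the NDC80 complex, which binds the ends of microtubules, all fell. Their estimates were -1.84 for SPC25, -1.70 for NDC80, -1.63 for NUF2 and -1.445 for SPC24. NUF2 was lowest in mock cells with dipyridamole alone and highest in mock cells with the control treatment. In SLC29A2 cells NUF2 was at 14.5 FPKM with both drugs and 13.7 FPKM with dipyridamole alone, against 43.7 FPKM with sorafenib and 52.5 FPKM with the control treatment, and in mock cells at 18.7 FPKM with both drugs and 13.2 FPKM with dipyridamole alone, against 42.5 FPKM with sorafenib and 55.8 FPKM with the control treatment. CENPE, a kinesin that carries chromosomes to the spindle equator, fell by 1.29. Levels of CENPE with both drugs were 6.40 FPKM in SLC29A2 cells and 6.39 FPKM in mock cells and with dipyridamole alone 6.41 and 7.69 FPKM, against 17.9 and 15.6 FPKM with sorafenib alone and 20.1 and 17.98 FPKM with the control treatment. CENPA, the histone H3 variant that marks centromeres, had the smallest fall of the group, with an estimate of -1.18. With both drugs CENPA stood at 12.7 FPKM in SLC29A2 cells and 11.6 FPKM in mock cells, and with dipyridamole alone at 7.42 and 8.20 FPKM in these cells, against 18.1 and 23.3 FPKM with sorafenib alone and 24.2 and 28.96 FPKM with the control treatment. Its level with both drugs lay above its level with dipyridamole alone in either cell type.

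The spindle checkpoint genes fell in 5 of 5, from -1.86 for BUB1 to -0.64 for BUB3. BUB1 is a checkpoint kinase at kinetochores. BUB1 had 23.7 and 19.4 FPKM in SLC29A2 and mock cells with both drugs and 19.6 and 19.8 FPKM with dipyridamole alone, against 74.3 and 74.01 FPKM with sorafenib alone and 80.3 and 81.6 FPKM with the control treatment. The dipyridamole libraries lay within 19.4 to 23.7 FPKM, and its estimate was -1.86 ± 0.107 (SE, adjusted p = 3.41e-05). BUB1B (BUBR1) and MAD2L1 (MAD2), parts of the mitotic checkpoint complex, fell with estimates of -1.66 and -1.52, and TTK (MPS1), a kinase that starts the signal, with -1.53. BUB3 is the partner of BUB1 and BUBR1 and had the smallest fall of the 57. In SLC29A2 cells BUB3 was at 51.9 FPKM with both drugs and 49.96 FPKM with dipyridamole alone, against 81.01 FPKM with sorafenib and 80.1 FPKM with the control treatment, and in mock cells at 55.9 FPKM with both drugs and 53.6 FPKM with dipyridamole alone, against 84.1 FPKM with sorafenib and 85.5 FPKM with the control treatment. Its estimate was -0.64 ± 0.0889 (SE, adjusted p = 0.00116), and its groups did not overlap either.

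Of the 11 kinesins, motor proteins of the spindle, 11 fell, with a median of -1.57. KIF20A (MKLP2), which moves the passenger complex to the spindle midzone, had the largest fall of all 57. Levels of KIF20A with both drugs were 12.4 FPKM in SLC29A2 cells and 9.51 FPKM in mock cells and with dipyridamole alone 13.1 and 13.01 FPKM, against 66.1 and 60.6 FPKM with sorafenib alone and 74.7 and 77.7 FPKM with the control treatment. It averaged 11.99 ± 1.68 FPKM with dipyridamole and 69.8 ± 7.83 FPKM without (SD over 4 libraries of differing conditions each), and its estimate was -2.45 ± 0.105 (SE, adjusted p = 8.92e-06). KIF18B, which shortens microtubules at their ends, fell by 1.70. With both drugs KIF18B stood at 26.2 FPKM in SLC29A2 cells and 20.4 FPKM in mock cells, and with dipyridamole alone at 30.8 and 27.6 FPKM in these cells, against 81.5 and 68.8 FPKM with sorafenib alone and 102 and 98.9 FPKM with the control treatment. KIF11 (Eg5), which pushes the spindle poles apart, and KIF23 (MKLP1), a subunit of centralspindlin, fell with estimates of -1.67 and -1.56. Those of KIF20B, KIF4A, KIF2C and KIF14 were -1.80, -1.61, -1.57 and -1.41. KIF22, KIF18A and KIF15 had the smaller falls, with estimates of -1.33, -1.20 and -1.12. KIF4B, a near-identical copy of KIF4A, had at most 0.0274 FPKM.

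Genes of the spindle poles, the midzone and cytokinesis fell in 7 of 7, with a median of -1.52. ANLN, which encodes anillin of the contractile ring, fell most. ANLN had 44.2 and 42.2 FPKM in SLC29A2 and mock cells with both drugs and 42.7 and 48.8 FPKM with dipyridamole alone, against 185 and 168 FPKM with sorafenib alone and 207 and 197 FPKM with the control treatment. Its estimate was -2.06 ± 0.0995 (SE, adjusted p = 1.51e-05). CEP55, which brings the abscission machinery to the midbody, fell least of this role and had its largest SE. In SLC29A2 cells CEP55 was at 47.5 FPKM with both drugs and 21.9 FPKM with dipyridamole alone, against 55.8 FPKM with sorafenib and 53.7 FPKM with the control treatment, and in mock cells at 34.1 FPKM with both drugs and 19.1 FPKM with dipyridamole alone, against 63.7 FPKM with sorafenib and 65.9 FPKM with the control treatment. With both drugs SLC29A2 cells nearly reached the level seen with sorafenib alone, a difference of -0.23, whereas in mock cells without sorafenib the difference was -1.74. The estimate was -1.02 ± 0.206 (SE, adjusted p = 0.00638). NUSAP1 and ASPM, which act on spindle microtubules, fell with estimates of -1.86 and -1.66. Levels of ASPM with both drugs were 13.04 FPKM in SLC29A2 cells and 11.8 FPKM in mock cells and with dipyridamole alone 10.9 and 13.00 FPKM, against 45.3 and 35.6 FPKM with sorafenib alone and 45.00 and 37.5 FPKM with the control treatment. ECT2, the exchange factor that activates RhoA at the division site, fell by 1.52. With both drugs ECT2 stood at 18.7 FPKM in SLC29A2 cells and 21.9 FPKM in mock cells, and with dipyridamole alone at 21.97 and 26.00 FPKM in these cells, against 58.1 and 58.4 FPKM with sorafenib alone and 71.5 and 72.7 FPKM with the control treatment. PRC1, which bundles midzone microtubules, and RACGAP1, the other centralspindlin subunit, fell with estimates of -1.51 and -1.46. PRC1 and NUSAP1 share 57.6% and 62.2% of their exon bases with another annotated gene on the same strand.

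Chromosome proteins fell in 7 of 7, with a median of -1.56. MKI67 encodes Ki-67, which coats mitotic chromosomes and is used as a marker of dividing cells. MKI67 had 25.5 and 15.5 FPKM in SLC29A2 and mock cells with both drugs and 17.4 and 19.1 FPKM with dipyridamole alone, against 83.3 and 68.4 FPKM with sorafenib alone and 101 and 93.2 FPKM with the control treatment. Its estimate was -2.11 ± 0.155 (SE, adjusted p = 6.18e-05). TOP2A, topoisomerase II alpha, separates entangled DNA and had the highest FPKM of the 57 in each library without dipyridamole. In SLC29A2 cells TOP2A was at 114 FPKM with both drugs and 76.6 FPKM with dipyridamole alone, against 344 FPKM with sorafenib and 345 FPKM with the control treatment, and in mock cells at 84.4 FPKM with both drugs and 80.2 FPKM with dipyridamole alone, against 363 FPKM with sorafenib and 384 FPKM with the control treatment. Its estimate was -2.02 ± 0.133 (SE, adjusted p = 4.71e-05). The condensin subunits SMC4 and SMC2 fell with estimates of -1.56 and -1.20, and NCAPG, NCAPD2 and NCAPH with -1.61, -1.499 and -1.46. NCAPG shares 33.1% of its exon bases with LCORL on the opposite strand, which had at most 3.11 FPKM.

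The genes grouped here under anaphase and exit fell in 5 of 5, with a median of -1.68. CDC20 activates the anaphase-promoting complex. Levels of CDC20 with both drugs were 135 FPKM in SLC29A2 cells and 80.5 FPKM in mock cells and with dipyridamole alone 101 and 74.95 FPKM, against 223 and 224 FPKM with sorafenib alone and 306 and 353 FPKM with the control treatment. SLC29A2 cells stood above mock cells under both dipyridamole treatments and below them with the control treatment, and the estimate was -1.501 ± 0.203 (SE, adjusted p = 0.000961). CDCA3 (Tome-1, trigger of mitotic entry), an adaptor for protein degradation in the cell cycle, fell the most of this group. By that name it could also be placed under entry. With both drugs CDCA3 stood at 16.01 FPKM in SLC29A2 cells and 14.2 FPKM in mock cells, and with dipyridamole alone at 15.8 and 19.4 FPKM in these cells, against 66.7 and 63.6 FPKM with sorafenib alone and 77.03 and 78.1 FPKM with the control treatment. Its estimate was -2.06 ± 0.106 (SE, adjusted p = 1.94e-05). PTTG1 is securin, the inhibitor of separase. PTTG1 had 25.5 and 25.2 FPKM in SLC29A2 and mock cells with both drugs and 35.8 and 27.6 FPKM with dipyridamole alone, against 83.1 and 92.8 FPKM with sorafenib alone and 92.5 and 103 FPKM with the control treatment. Separase itself, ESPL1, cuts cohesin. In SLC29A2 cells ESPL1 was at 17.02 FPKM with both drugs and 16.3 FPKM with dipyridamole alone, against 55.6 FPKM with sorafenib and 64.4 FPKM with the control treatment, and in mock cells at 12.2 FPKM with both drugs and 19.1 FPKM with dipyridamole alone, against 54.8 FPKM with sorafenib and 64.99 FPKM with the control treatment. PTTG1 and ESPL1 fell with estimates of -1.68 and -1.84, and UBE2C, the ubiquitin-conjugating enzyme of the complex, with -1.453. PTTG2 and PTTG3P, near-identical copies of PTTG1, had at most 0.0967 FPKM.

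In single pairs of libraries, with no test, 40 of the 57 were at least 2-fold lower in SLC29A2 cells with both drugs against sorafenib alone (5.42% of all genes tested). In mock cells the same comparison gave 52 of 57 (2.78%). For dipyridamole alone against the control treatment the counts were 55 of 57 in SLC29A2 cells (5.04%) and 56 of 57 in mock cells (3.24%), where BUB3 was the exception. The median difference of the 57 was -1.29 in SLC29A2 cells and -1.49 in mock cells on top of sorafenib, and -1.68 and -1.81 without sorafenib. Across the 57 genes, the differences in SLC29A2 and mock cells, which share no library, correlated with Pearson's r = 0.73 on top of sorafenib and 0.56 without it, beside 0.63 and 0.60 across all genes tested; genes are not independent replicates. Spearman's rank correlation across the 57 was 0.71 on top of sorafenib and 0.36 without it. The lowest library of a gene was SLC29A2 cells with dipyridamole alone for 20 genes, mock cells with dipyridamole alone for 19, mock cells with both drugs for 17 and SLC29A2 cells with both drugs for 1. The highest was the control treatment in mock cells for 44 genes, the control treatment in SLC29A2 cells for 10 and sorafenib in SLC29A2 cells for 3.

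Further genes of mitosis, of its regulation and of DNA replication were set beside these. The counts that follow stand beside 12.6% of all genes tested lower with dipyridamole and 17.5% higher. Of 83 other mitotic genes tested, 63 were lower with dipyridamole, 0 were higher and 20 did not pass, with a median of -0.95. DLGAP5, GTSE1, ZWINT and CCNF fell most, with estimates of -1.87, -1.82, -1.79 and -1.75. Among the 9 genes of that list for subunits and the activator FZR1 of the anaphase-promoting complex, a part chosen after its values were seen, 2 were lower (ANAPC1, -0.45, and CDC27, -0.41), 7 did not pass and the median was -0.19. Of 32 DNA replication genes, 30 were lower and 2 did not pass, with a median of -1.21. RRM2, a subunit of ribonucleotide reductase, fell with an estimate of -2.68, and MCM4, MCM10 and MCM3 of the replication machinery with -1.89, -1.79 and -1.69.

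Of 16 regulators of late cell cycle transcription, 8 were lower, 1 was higher and 7 did not pass, beside 12.6% of all genes tested lower and 17.5% higher. MYBL2 encodes B-MYB, the activator that joins the MuvB core. With both drugs MYBL2 stood at 27.5 FPKM in SLC29A2 cells and 16.1 FPKM in mock cells, and with dipyridamole alone at 13.7 and 13.3 FPKM in these cells, against 41.7 and 45.2 FPKM with sorafenib alone and 53.2 and 60.9 FPKM with the control treatment. Its estimate was -1.503 ± 0.224 (SE), with an adjusted p of 0.00159 by limma, or -1.23 with an adjusted p of 0.0542 without both mock libraries given dipyridamole. E2F1, the E2F partner TFDP1, the NF-Y subunit NFYB and the MuvB subunit LIN9 were also lower, with estimates of -1.40, -1.10, -1.11 and -1.06. RBL1, RBBP4 and NFYA were the other 3 that were lower. Of the genes whose proteins can take part in the DREAM complex, LIN9, RBL1, RBBP4 and TFDP1 were thus lower. E2F4, RBL2, LIN37, LIN52 and LIN54, which can take part in it too, did not pass, with estimates of -0.13, 0.07, 0.13, 0.11 and -0.49. CDKN1A, the cyclin-dependent kinase inhibitor p21, was the 1 regulator that was higher. CDKN1A had 301 and 333 FPKM in SLC29A2 and mock cells with both drugs and 311 and 273 FPKM with dipyridamole alone, against 203 and 275 FPKM with sorafenib alone and 176 and 204 FPKM with the control treatment. Its estimate was 0.52 ± 0.124 (SE), with an adjusted p of 0.0139 by limma. That call was lost without the control library of SLC29A2 cells (adjusted p = 0.0540) and without a filter on low values (adjusted p = 0.0511), both by limma.

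**Figure D3:**
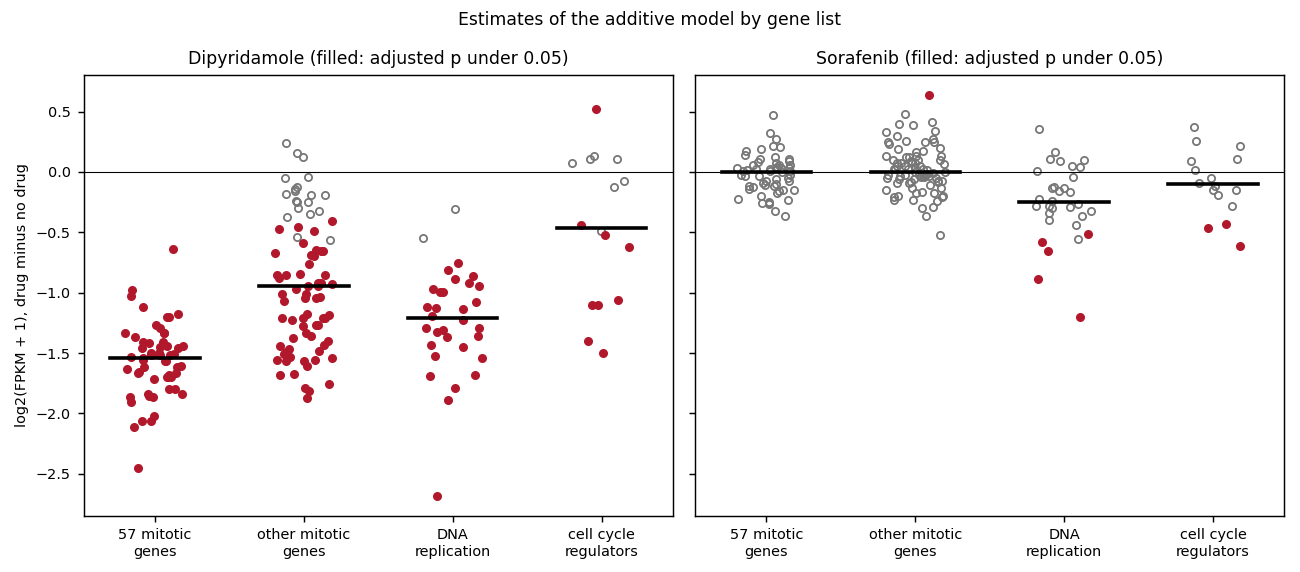
Estimates of the additive model in log2(FPKM + 1), drug minus no drug, for dipyridamole (left panel) and sorafenib (right panel) in the 57 mitotic genes, the other mitotic genes, DNA replication genes and cell cycle regulators. Each point is a gene, filled where its adjusted p was under 0.05, and bars are medians; the 57 genes lie between -2.45 and -0.64 for dipyridamole and between -0.37 and 0.47 for sorafenib.

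Sorafenib gave 0 of 57 calls in either direction by limma, beside 2.17% of all genes lower and 5.94% higher. At an unadjusted p under 0.05, 5 were lower and 1 was higher, beside 7.26% of all genes lower and 19.4% higher. The median was 0.00, with 29 estimates below and 28 above 0. KIF18B and AURKA had the lowest estimates, -0.37 ± 0.0977 (SE, adjusted p = 0.0521) and -0.32 ± 0.132 (SE, adjusted p = 0.156). CEP55 and CCNB2 had the highest, 0.47 ± 0.206 (SE, adjusted p = 0.18) and 0.32 ± 0.163 (SE, adjusted p = 0.241). Levels of CCNB2 with both drugs were 21.3 FPKM in SLC29A2 cells and 18.7 FPKM in mock cells and with dipyridamole alone 13.8 and 11.3 FPKM, against 39.7 and 46.1 FPKM with sorafenib alone and 37.3 and 48.1 FPKM with the control treatment. Dividing by median-of-ratios size factors called KIF18B and ECT2 lower, and voom on the recovered reads and a fit with the 4 matched pairs of libraries as a block (adjusted p = 0.0312 by limma) each called KIF18B lower. With all interactions fitted and effects averaged over the other factors, which left 1 residual degree of freedom, 6 of 57 were called lower and 3 higher, beside 1426 lower and 3413 higher of all 13899 genes. With size factors the estimates split into 46 below and 11 above 0, and the calls over all genes into 470 lower and 478 higher, against 302 lower and 825 higher for the values as deposited.

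The near-zero median joined unlike pairs. With sorafenib against the control treatment, 48 of 57 genes were lower in SLC29A2 cells, with a median of -0.16, and 57 of 57 in mock cells, with a median of -0.25. In these pairs the medians over all genes tested were 0.03 and 0.04. On top of dipyridamole, 49 of 57 were higher in SLC29A2 cells, with a median of 0.32, and 29 of 57 in mock cells, with a median of 0.01. Here the medians over all genes tested were 0.12 and 0.18. The median of the 57 thus lay above that of all genes in SLC29A2 cells and below it in mock cells. With size factors the same counts on top of dipyridamole were 42 higher in SLC29A2 cells and 15 higher in mock cells, so the direction in mock cells depended on the scaling. In SLC29A2 cells with both drugs against dipyridamole alone, 2 of 57, CEP55 and FOXM1, were at least 2-fold higher, by 1.08 and 1.01 on the log2 scale, a share near the 3.57% of all genes. With size factors 0 of 57 were, the highest difference being 0.96. For 22 of 57 genes sorafenib was above 0 in both pairs with dipyridamole and below 0 in both pairs without, as for 11.1% of all genes, and with size factors for 10 of 57, beside 8.40% of all genes.

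The interaction of sorafenib and dipyridamole was positive for 54 of 57 genes, with a median of 0.37 beside 0.11 for all genes. That median was 0.19 without the SLC29A2 library given both drugs, with 47 of 57 above 0, and 0.26 with size factors, with 44 of 57 above 0. By limma 0 of 57 passed after adjustment, beside 0.0576% of all genes lower and 0.0288% higher; 16 were higher and 0 lower at an unadjusted p under 0.05, beside 9.01% of all genes higher and 4.22% lower. BIRC5 and CEP55 had the highest estimates, 0.98 ± 0.365 (SE, adjusted p = 0.34) and 0.94 ± 0.275 (SE, adjusted p = 0.257). PTTG1 and ESPL1 had the lowest, -0.15 ± 0.222 (SE, adjusted p = 0.826) and -0.05 ± 0.241 (SE, adjusted p = 0.958). Voom on the recovered reads also gave 0 calls, whereas leaving out both mock libraries given dipyridamole, with 1 residual degree of freedom left, gave 36 higher and 1 lower. Calls over the whole table grew in that fit too, to 14% of all genes higher and 11.2% lower. All members of 6 of the 8 roles had estimates above 0, as did 8631 of all 13899 genes. Medians were 0.60 for the 7 entry genes, 0.48 for the 7 kinases and passenger genes, 0.48 for the 7 chromosome genes, 0.37 for the 7 cytokinesis genes, 0.25 for the 11 kinesins and 0.17 for the 5 checkpoint genes. The 8 kinetochore genes had a median of 0.39 with 7 above 0, and the 5 anaphase and exit genes a median of 0.04 with 3 above 0. Differences between roles were not tested.

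**Figure D4:**
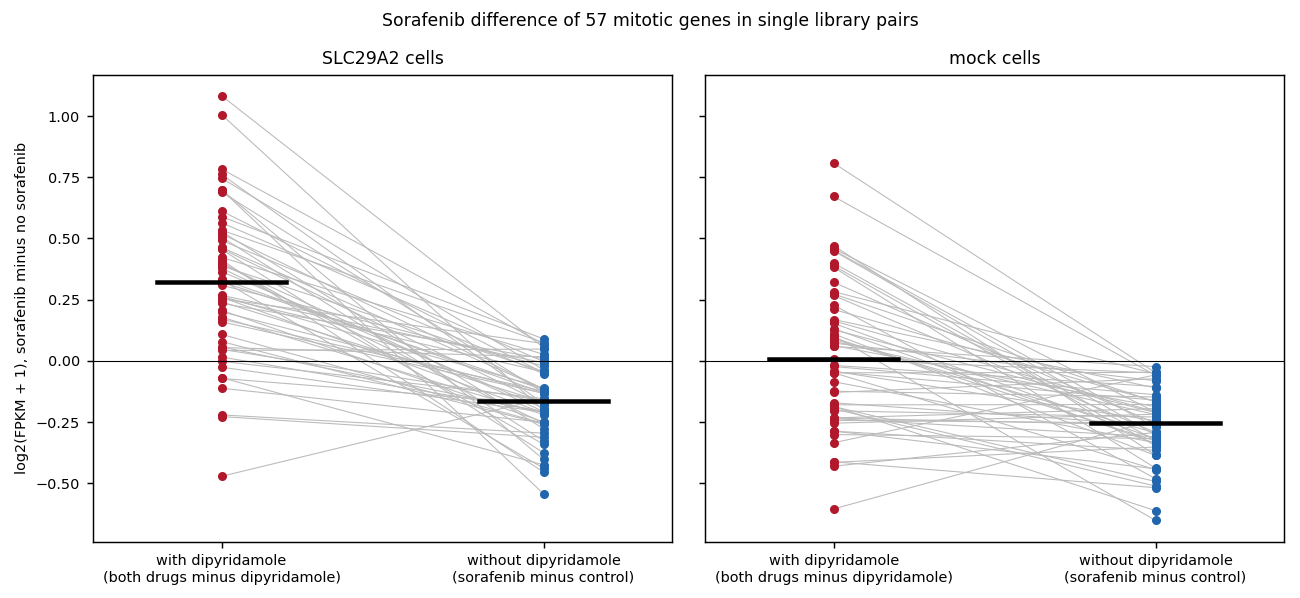
Difference in log2(FPKM + 1), sorafenib minus no sorafenib, for the 57 genes in single library pairs of SLC29A2 cells (left panel) and mock cells (right panel). In each panel red points are pairs with dipyridamole in both libraries and blue points pairs without it, lines join the same gene and bars are medians, which are 0.32 and -0.16 in SLC29A2 cells and 0.01 and -0.25 in mock cells.

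Between SLC29A2 cells and mock cells 0 of 57 genes passed the adjusted test by limma. SLC29A2 was the 1 gene called higher among all genes tested (0.00719%) and 0 genes (0%) were lower. None of the 57 had an unadjusted p under 0.05, beside 0.554% of all genes higher and 3.37% lower, voom also called 0, and their median was 0.05. MKI67 and CDC20 had the highest estimates, 0.24 ± 0.155 (SE, adjusted p = 0.965) and 0.24 ± 0.203 (SE, adjusted p = 0.965). CENPA and ECT2 had the lowest, -0.15 ± 0.192 (SE, adjusted p = 0.965) and -0.12 ± 0.0974 (SE, adjusted p = 0.965). With both drugs, however, 52 of the 57 were higher in SLC29A2 cells than in mock cells, with a median of 0.27 and a maximum of 0.83 for BIRC5, in a single pair with no test. Their counts above 0 in the other pairs were 28 of 57 with dipyridamole alone, 33 with sorafenib alone and 11 with the control treatment. The medians over all genes tested were -0.15 with both drugs, -0.10 with dipyridamole alone, -0.007 with sorafenib alone and 0 with the control treatment. The interaction of cell type and dipyridamole gave 0 of 57 calls by limma (0% of all genes in either direction), and KIF22 was the 1 gene with an unadjusted p under 0.05, on the higher side, beside 5.6% of all genes higher and 14.2% lower. The highest estimates of this interaction were 0.81 ± 0.409 (SE, adjusted p = 0.315) for BIRC5 and 0.69 ± 0.348 (SE, adjusted p = 0.318) for CDC20, and its lowest -0.35 ± 0.187 (SE, adjusted p = 0.343) for ASPM and -0.29 ± 0.188 (SE, adjusted p = 0.426) for CENPE. The interaction of cell type and sorafenib also gave 0 of 57 calls by limma (0% of all genes in either direction) and 0 at an unadjusted p under 0.05 (0.302% of all genes higher and 0.417% lower). Of the 57 estimates 53 were above 0, with a median of 0.20, beside 6058 of all 13899 genes and a median of -0.03. That tally rested on single libraries: without the SLC29A2 library given both drugs 26 estimates were above 0, with a median of -0.0055, and without the control library of mock cells 34, with a median of 0.060. Its highest values were 0.49 ± 0.295 (SE, adjusted p = 1.00) for MKI67 and 0.42 ± 0.263 (SE, adjusted p = 1.00) for CENPF, and its lowest -0.18 ± 0.257 (SE, adjusted p = 1.00) for PTTG1 and -0.13 ± 0.319 (SE, adjusted p = 1.00) for NUF2. Voom called 0 of 57 in both of these interactions.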

How the data were processed

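Messenger RNA of 8 SK-Hep1 libraries was selected by poly(A) tails and made into libraries with a NEBNext Ultra kit, per the labels' protocols. The authors deposited FPKM values, 1 table per library. TopHat2 2.0, HTSeq 0.6.1 and edgeR stand in the submitters' processing notes beside GRCh38.p12, with no role given, and strand use is not given in the sources used here. Symbols came from GENCODE release 29, which matched 57980 of 58302 genes. Values were taken as log2(FPKM + 1), which understates changes of low genes, for the 13899 genes averaging 1 FPKM or more. Limma 3.58.1 in R 4.3.3 fitted cell type, sorafenib and dipyridamole with a variance trend, adding each interaction singly, tested on both sides, and p-values were adjusted by Benjamini and Hochberg's method across every gene tested, with a threshold of 0.05. The error term includes interactions not fitted. The code was tested on simulated data. FPKM times mean transcript length fell on whole reads for 93.5% to 93.7% of values per library at a tolerance of 0.01, which gave the depths of 14.07 to 16.69 M reads and the reads used for voom as an alternative. Other alternatives were a pseudocount of 0.1, no filter, size factors, all interactions, and leaving out libraries. The labels give no replicate numbers; a block on the 4 pairs of libraries alike in the other factors, and interactions with averaged effects, were added after seeing the data. The 57 genes and the other gene lists were chosen with earlier results of these data known. Values in every library are given for 11 fixed genes and, per comparison, for up to 6 called genes in each direction or, where none was called, those with the 2 highest and the 2 lowest estimates. The BUB3 values were added after they were seen.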

Additional observations from a re-analysis of the deposited data

How the results depend on the processing

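The dipyridamole count remained 57 of 57 lower with a pseudocount of 0.1 FPKM, without a filter, with size factors, with voom, with the 4 matched pairs of libraries as a replicate block, with all interactions in either coding and with each library left out, and was 53 without both mock libraries given dipyridamole; the median difference ranged from -1.88 to -1.47. Pairs are alike in the other factors, and the block fit and the one with effects averaged were chosen after seeing the data. The averaged fit, with 1 residual degree of freedom, called 3045 of all 13899 genes lower with dipyridamole and 4366 higher. As reported, those counts were 1745 lower and 2428 higher. Sorafenib, with 0 lower as reported, gave 2 with size factors, 1 with voom, 1 with the block on matched pairs, and with all interactions 4 where the effect is that in mock cells without dipyridamole, or 6 lower and 3 higher where it is averaged over the other factors. The block changed no other count of the 57 in the 3 main effects, and it was not fitted to interactions. The interaction of sorafenib and dipyridamole gave 36 higher and 1 lower without both mock libraries given dipyridamole, beside 1952 higher and 1562 lower of all 13899 genes, where the interaction of cell type and dipyridamole could not be fitted. Many estimates that did not pass changed sign. With all interactions and the effect in cells without the other factors, all 57 sorafenib estimates were below 0, against 29 as reported, among them CCNB2 (-0.0013) and CEP55 (-0.092), and 48 of the cell type estimates were, against 16, among them CDC20 (-0.23) and MKI67 (-0.046). Those coefficients describe 1 condition and not the average. The averaged effects are the same estimates as reported, because the design is balanced, so their signs could not differ. Without both mock libraries given dipyridamole, 36 cell type estimates were below 0, against 16, among them CDC20 (-0.11). Signs also changed in that fit for the sorafenib by dipyridamole estimate of ESPL1 (0.28) and the cell type by sorafenib estimate of NUF2 (0.30). Leaving out 1 library gave -0.33 to 0.015 for the cell type estimate of CENPA, -0.31 to 0.21 for ESPL1 and -0.38 to 0.083 for PTTG1 in the sorafenib by dipyridamole interaction, and -0.40 to 0.044 for PTTG1 and -0.46 to 0.19 for NUF2 in the cell type by sorafenib interaction. The cause was not tested. In promoters cut to 100 bases before the start, CHR letters stood in 36 and CCAAT in 33 of 48 genes, against 39 and 38. Without a filter the sorafenib calls over all genes were 38 lower and 98 higher.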
